A study of Mus musculus with 6 samples.

Results

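The genes described here encode the respiratory chain: the 13 proteins made from mitochondrial DNA, and the nuclear genes whose symbols begin with Ndufa, Ndufb, Ndufs, Ndufv, Uqcr, Cox4i, Cox5 to Cox8, Atp5 or Sdh. This choice by symbol gave 106 of the 20483 genes in the table, 13 mitochondrially encoded and 93 nuclear. By complex, the mitochondrial genome contributed 7 genes to complex I, 1 to complex III, 3 to complex IV and 2 to complex V. The nuclear genes comprised 34 of complex I, 4 of complex II, 8 of complex III, 17 of complex IV and 17 of complex V, together with 12 assembly factors and Ndufb1-ps, listed in the annotation as a non-coding RNA, which the symbols also caught.

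The study grew tracheal epithelial cells of 12-week-old C57BL/6 mice at an air-liquid interface, where basal cells differentiate into secretory and multiciliated cells. It compared 3 WT mice with 3 Dnaaf5 Mutant mice that carry a missense allele, made by genome editing, on both chromosomes (MIS/MIS). Dnaaf5 encodes a cytoplasmic factor that assembles axonemal dynein motors, and variants that reduce its function cause primary ciliary dyskinesia. Both groups share strain, age, tissue and type of culture, and the WT mice were littermates. The sample labels name no culture date or batch. Single-cell libraries were read from the 3′ end of each transcript and counted as unique molecular identifiers (UMIs), and each cell carries the authors' cluster name, 1 of 16. The libraries held 2842, 4844 and 2771 cells in WT 1 to 3 and 4031, 2673 and 6710 in the Mutant mice MT1301, MT1306 and MT1383, 23871 in all. Median UMIs per cell ran from 21327.5 in MT1383 to 35383 in MT1306, and 67 barcodes occurred in more than 1 library. The authors kept no cell above 25% mitochondrial UMIs, and the highest value in the table was 24.99%, so every mitochondrial share below is a share among cells under that limit.

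The respiratory chain passes electrons from NADH (complex I) or succinate (complex II) through ubiquinone, complex III and cytochrome c to oxygen at complex IV, and the proton gradient so built drives ATP synthesis at complex V. Each complex except complex II combines subunits from both genomes, which are transcribed by different polymerases in different compartments. Mitochondrial DNA is transcribed as long precursors that are cut into single messengers, while each nuclear subunit has a promoter of its own. Multiciliated cells are rich in mitochondria placed under the apical surface, near the beating cilia that consume ATP.

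The 13 mitochondrial genes lie close together on chromosome M (GENCODE M21 annotation of GRCm38), from mt-Nd1 at chrM:2751-3707 to mt-Cytb at chrM:14145-15288. All are on the plus strand except mt-Nd6, at chrM:13552-14070. The messenger of mt-Atp8 and mt-Atp6 is read in 2 frames, and the last 43 bases of mt-Atp8 are the first of mt-Atp6. This stretch, chrM:7927-7969, plus strand, is shown because UMIs cannot be split cleanly between genes that share a messenger; capitals mark the start codon of mt-Atp6.
mt-Atp8/mt-Atp6: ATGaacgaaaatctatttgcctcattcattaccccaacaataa
The genes mt-Nd4l and mt-Nd4 likewise share 7 bases, chrM:10167-10173. A molecule counted under mt-Atp6 or mt-Nd4 can therefore be the joint messenger.

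Of the 93 nuclear genes, 77 were matched to a RefSeq promoter (GRCm38.p6, 250 bases before to 50 after the start). The letters CGCATGCG, the core of the site of nuclear respiratory factor 1 (NRF1), were searched on both strands. A gene counted if any of its promoters held them. This was so for 11 of the 77 (14.3%) and for 559 of all 27025 genes with a promoter (2.07%). The 11 were Ndufa8, Ndufa11, Ndufaf4, Ndufaf5, Uqcrc1, Uqcr11, Cox6a1, Atp5g2, Atp5j, Atp5k and Atp5l. The ETS-type letters CCGGAAG were in 22 (28.6%) against 9.93% of all genes with a promoter, and CCAAT in 33 (42.9%) against 41.1%. The windows of 150 bases directly before the start are shown, all on the minus strand: Cox6b2 (chr7:4753095-4753244) and Ndufaf3 (chr9:108567437-108567586), which were highest in Multiciliated2, and Atp5k (chr5:108434400-108434549), which had low unadjusted p-values between genotypes in more than 1 cell type. Capitals mark a CCAAT match, read on either strand, in the first and second, and the NRF1 core in the third.
Cox6b2: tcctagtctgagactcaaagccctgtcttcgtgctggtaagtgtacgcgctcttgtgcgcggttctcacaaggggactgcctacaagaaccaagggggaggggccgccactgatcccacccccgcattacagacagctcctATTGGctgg
Ndufaf3: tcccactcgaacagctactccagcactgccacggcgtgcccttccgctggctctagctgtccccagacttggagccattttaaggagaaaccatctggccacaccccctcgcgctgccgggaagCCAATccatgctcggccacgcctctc
Atp5k: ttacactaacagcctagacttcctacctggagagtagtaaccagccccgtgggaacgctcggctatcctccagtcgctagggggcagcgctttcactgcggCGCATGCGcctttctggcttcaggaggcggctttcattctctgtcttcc
A match describes the letters only, and neither the Cox6b2 nor the Ndufaf3 window held the NRF1 core or the ETS letters.

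The share of all UMIs that came from the 13 mitochondrially encoded genes differed widely between clusters. Among clusters with at least 3 mice of 10 cells or more, it was highest in Basal5 (14.4% ± 1.48, SD, n = 5 mice) and Basal8 (14.2% ± 1.14, n = 5), followed by Secretory2 (12.997% ± 0.435, n = 6). Multiciliated2 (11.6% ± 0.565), Multiciliated1 (11.6% ± 0.395) and Secretory1 (11.5% ± 0.767) followed, and their gaps were smaller than the larger SD of each pair. Multiciliated3, the largest multiciliated cluster with 2712 cells, had 8.58% ± 0.913 (n = 6). Multiciliated4 lay far below at 2.89% ± 0.937 (n = 5). Basal clusters 1 to 4, 6 and 7 and the Neuroendocrine cluster filled the range from 9.33% to 11.003%, with no neighbouring pair apart by more than its SD. Clusters had been formed by the authors from the same cells and genes, so these contrasts are descriptions and carry no test.

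The nuclear genes had a different order. Multiciliated4 was highest at 6.71% ± 0.199 of all UMIs (n = 5), and the next, Multiciliated2, had 3.49% ± 0.157 (n = 6). Basal8 (3.42% ± 0.186) and Multiciliated3 (3.40% ± 0.124) were within 1 SD of Multiciliated2, and Basal1 was lowest at 2.54% ± 0.120. The number of mitochondrial per nuclear UMI of the chain ran from 4.58 ± 0.456 in Basal5 and 4.39 ± 0.188 in Secretory2 to 2.53 ± 0.291 in Multiciliated3 and 0.430 ± 0.138 in Multiciliated4. Only the step from Multiciliated3 to Multiciliated4 was larger than the larger SD of the 2 neighbours. The Ionocyte cluster held 28 cells, 19 of them from MT1383, and its pooled cells gave 18.05% mitochondrial and 4.82% nuclear, the highest mitochondrial share of the 16 clusters, with no replicate check. Foxi1, the transcription factor that defines ionocytes, was at 669 CPM (its UMIs per 1000000 UMIs summed over all genes) there.

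**Figure D1:**
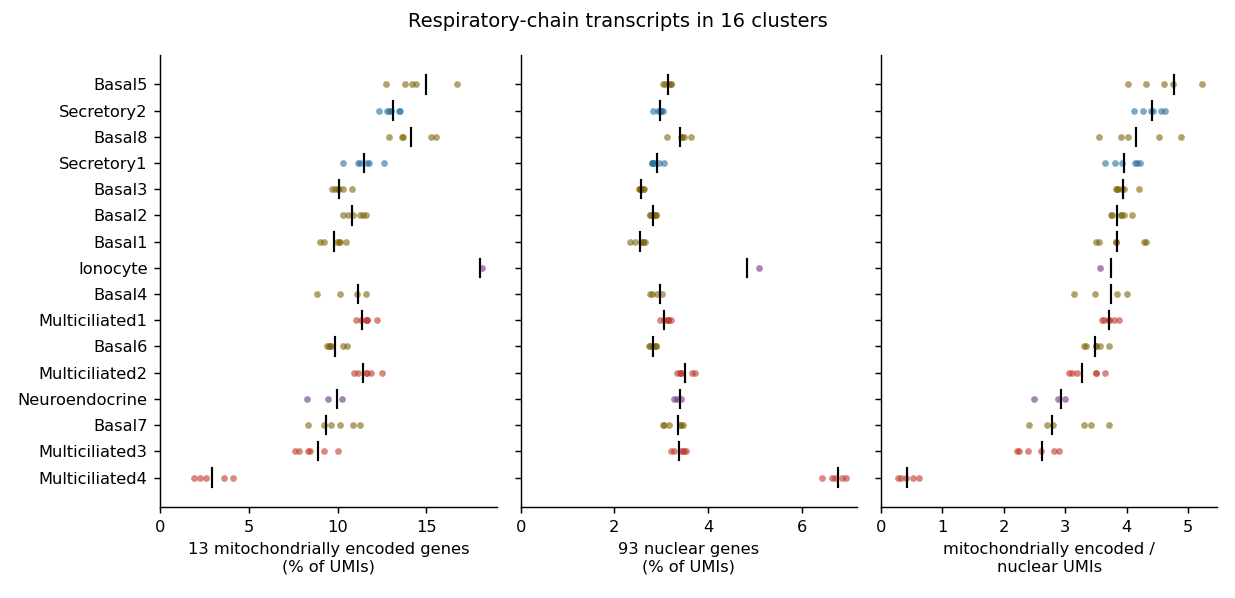
The panels plot, for each of the 16 clusters (rows), the share of UMIs from the 13 mitochondrially encoded genes (%), the share from the 93 nuclear genes (%) and the ratio of the 2, with 1 point per mouse of at least 10 cells. Multiciliated4 is lowest in the first panel (1.89 to 4.13%), highest in the second (6.44 to 6.95%) and lowest in the third (0.285 to 0.616).

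Over the 16 clusters, the mitochondrial and nuclear shares had a Pearson r of -0.33 (Spearman rho 0.12). Without Multiciliated4, r was 0.66 (rho 0.36, n = 15), and without the Ionocyte cluster as well it was 0.16 (rho 0.21, n = 14), so that these values rest on 2 clusters. The points share libraries and a common total of UMIs.

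The make-up of the mitochondrial UMIs was much alike in the basal and secretory clusters and furthest from them in Multiciliated3. There the 7 mt-Nd genes of complex I made up 33.0% ± 1.17 of mitochondrial UMIs, with values of 33.0, 32.1 and 34.8% in WT 1 to 3 and 33.5, 33.0 and 31.4% in MT1301, MT1306 and MT1383. In Multiciliated2 the share was 22.7% ± 0.448, with a range of 22.0 to 23.2%. Every mouse was higher in Multiciliated3 than in Multiciliated2, and the genotypes overlapped in both. The 8 basal and 2 secretory clusters had means of 22.7 to 24.4%, Multiciliated1 26.2% ± 0.859, Neuroendocrine 27.3% ± 1.32 (n = 3) and Multiciliated4 28.3% ± 3.95. The 1 mouse with enough Ionocyte cells had 27.3%.

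Within Multiciliated3, mt-Nd4 (a proton-pumping core subunit) took 11.8% ± 0.422 of mitochondrial UMIs against 7.58% ± 0.432 in Multiciliated2, mt-Nd2 11.1% ± 0.563 against 7.56% ± 0.273, and mt-Nd5 1.77% ± 0.145 against 0.778% ± 0.0588. Conversely, mt-Atp6, the proton-channel subunit of ATP synthase, took 16.8% ± 0.371 against 22.8% ± 0.380. The share of mt-Cytb, the mitochondrially encoded subunit of complex III, was 9.11% ± 0.0842 against 11.6% ± 0.365. Among the complex IV core subunits, mt-Co1 (14.6% ± 0.520 against 12.5% ± 0.671) had the larger share in Multiciliated3, and mt-Co3 (15.02% ± 0.430 against 18.1% ± 0.431) the smaller. Summed by complex and set against Basal1 as pooled CPM, the mitochondrial genes in Multiciliated3 stood at 1.31 for complex I, 0.698 for complex III, 0.862 for complex IV and 0.701 for complex V. The nuclear genes stood at 1.36, 1.78, 1.30, 1.29 and 1.32 for complexes I to V. Complex I was thus above Basal1 in both genomes, and complexes III to V only in the nuclear one. Basal1 had the lowest nuclear share of the clusters, so these ratios hold for that reference only. Mitochondrial complex I in Multiciliated3, at 28954.5 CPM, lay between Basal1 (22056) and Basal5 (36761). Nuclear complex IV, at 10046 CPM, lay between Basal1 (7786) and Basal8 (11772).

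**Figure D2:**
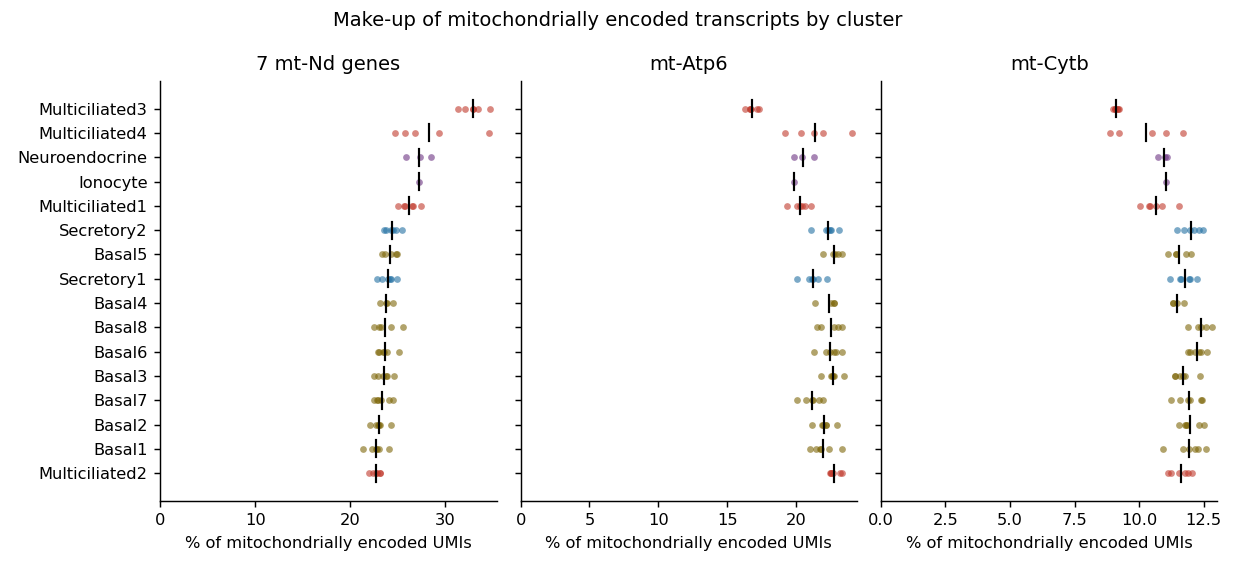
The panels plot the percent of mitochondrially encoded UMIs contributed by each gene group in each cluster (rows), 1 point per mouse of at least 10 cells. In Multiciliated3 the mt-Nd genes reach 31.4 to 34.8% and mt-Atp6 takes 16.3 to 17.3%, both outside the range of Multiciliated2.

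Among the 15 clusters of at least 100 cells, 79 of the 93 nuclear genes had their highest pooled CPM in Multiciliated4, and none of the 13 mitochondrial genes did. With that cluster set aside, the highest level fell in Neuroendocrine for 32 nuclear genes, in Multiciliated3 for 21 and in Multiciliated2 for 20. The Neuroendocrine pool held only 163 cells, 108 of them from MT1383, at a median of 10351 UMIs per cell. Most members varied little: the ratio of the highest to the lowest cluster, without Multiciliated4, had a median of 1.85 over the 85 nuclear genes above 10 CPM (range 1.32 to 13.9) and 1.96 over the 13 mitochondrial genes (1.68 to 2.29).

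For each complex the nuclear subunit with the most UMIs is described. Ndufb9, an accessory subunit of complex I, was at 427 CPM in pooled Basal1, 462 in Secretory1, 789 in Multiciliated2, 550 in Multiciliated3 and 972 in Multiciliated4. Sdha, the flavoprotein that oxidizes succinate in complex II, was at 92.8, 124, 108, 202 and 181 CPM in the same order, so Multiciliated3 held about the level of Multiciliated4. In the 6 mice Sdha ran from 194 to 211 CPM in Multiciliated3 and from 103 to 114 in Multiciliated2, without overlap. Uqcr10, a small subunit of complex III, was at 457, 690, 559, 587 and 1165 CPM. Atp5e, the epsilon subunit of the ATP synthase stalk, was at 538, 672, 714, 969 and 2227 CPM.

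Ndufa4, first assigned to complex I and now counted with complex IV, had its highest levels in basal clusters: 3055 ± 479 CPM in Basal8 (SD, n = 5), 2715 ± 601 in Basal5 (n = 5) and 2153 ± 462 in Basal4 (n = 4), against 904 ± 78.1 in Basal3 (n = 6). Among the multiciliated clusters it was lowest in Multiciliated3 (1143 ± 45.6 CPM, n = 6), against 1559 ± 171 in Multiciliated2 (n = 6), 1587 ± 210 in Multiciliated1 (n = 6) and 1808 ± 183 in Multiciliated4 (n = 5), and no mouse of Multiciliated3 overlapped with those of the others.

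Several members had their highest level, among clusters of at least 100 cells, in part of the multiciliated cells. Cox6b2, a form of the complex IV subunit 6B best known from testis, was at 89.6, 132 and 104 CPM in Multiciliated2 of WT 1 to 3 and at 138, 140 and 209 CPM in MT1301, MT1306 and MT1383. In Multiciliated3 the same mice had 5.94, 12.7, 5.79, 6.35, 8.25 and 10.1 CPM, and in Secretory1 0.774 to 1.91 CPM. Of its 7542 UMIs in all cells, 5348 came from Multiciliated2. The Ionocyte and Neuroendocrine clusters gave only 15 and 32 UMIs, but relative to their totals this was a higher level than in Multiciliated3. Multiciliated2 is the cluster with the early multiciliated markers: Ccno (439 CPM), Deup1 (364 CPM) and Mcidas (140 CPM), which act in the amplification of centrioles, were at 8.29, 14.1 and 0.619 CPM in Multiciliated3.

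Ndufaf3, a factor that helps assemble complex I, had the widest range of the 85 nuclear genes above 10 CPM, and it is described because of that range. It stood at 507, 531 and 575 CPM in Multiciliated2 of WT 1 to 3 and 555, 586 and 632 CPM in the Mutant mice. In Multiciliated3 it was at 173 to 223 CPM, and in Secretory1 at 42.3 to 49.4 CPM, so no mouse of 1 cluster overlapped with another. The gene shares 48 bases with Impdh2 on the opposite strand. Uqcrq, a small subunit of complex III, also chosen after its values were seen, was at 1173 to 1435 CPM in Multiciliated2 and at 557 to 669 CPM in Multiciliated3.

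Cox7a1, the heart and skeletal muscle form of subunit 7A, showed the opposite order within the multiciliated clusters. It was at 2.52 to 4.798 CPM in Multiciliated2, at 20.6, 26.6 and 24.7 CPM in Multiciliated3 of WT 1 to 3 and at 29.3, 30.7 and 27.0 CPM in the Mutant mice, and at 49.8 to 91.0 CPM in Multiciliated4. Cox7a1 was also present outside these clusters, with 1525 of its 6905 UMIs in Secretory1. The 28 Ionocyte cells gave 40, a higher level than in pooled Multiciliated3. Other tissue-restricted forms were near the floor: Cox4i2, the hypoxia-responsive lung form of subunit 4, had 41 UMIs in all 23871 cells, the muscle form Cox6a2 had 153, and Ndufa4l2 had 20. Of the 153 of Cox6a2, 83 came from Basal1.

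**Figure D3:**
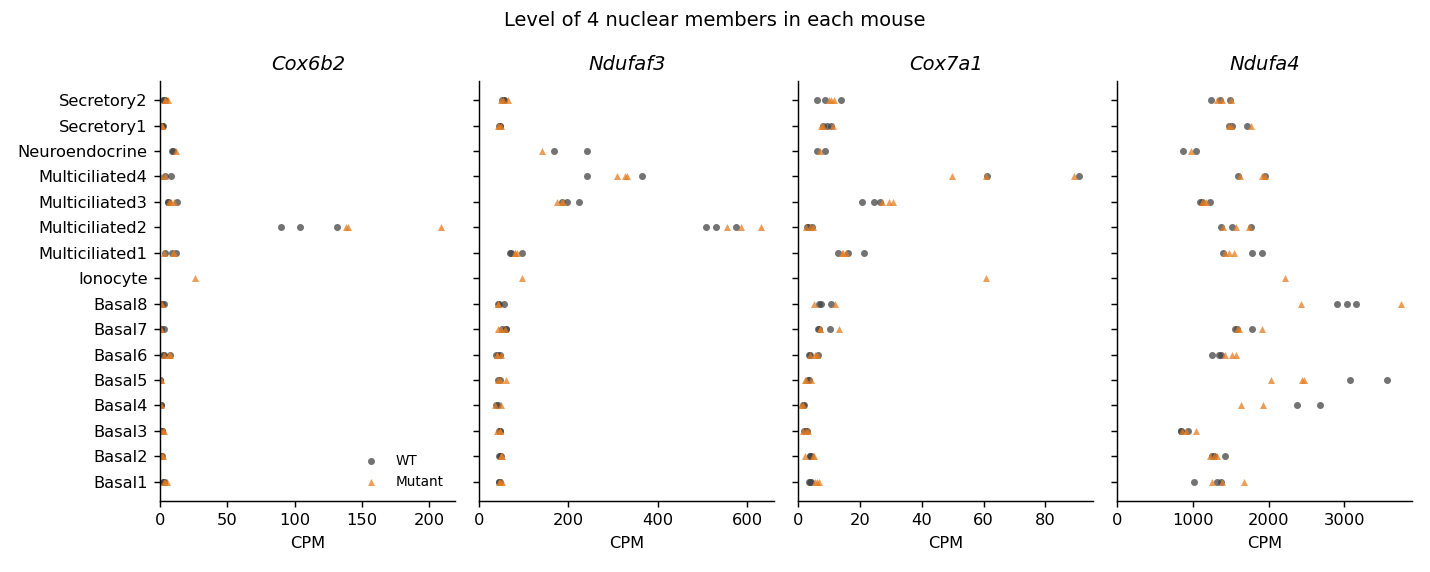
The panels plot the level (CPM) of Cox6b2, Ndufaf3, Cox7a1 and Ndufa4 in each cluster (rows), with 1 point per mouse of at least 10 cells and WT and Mutant drawn apart. Cox6b2 is at 89.6 CPM or more in Multiciliated2 and in no other cluster plotted, Ndufaf3 peaks there at 507 to 632 CPM, Cox7a1 peaks in Multiciliated4, and Ndufa4 peaks in Basal8.

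Multiciliated4 was the cluster in which the genomes parted most. It held 146 cells: 22, 6 and 23 from WT 1 to 3 and 20, 52 and 23 from MT1301, MT1306 and MT1383. Its cells had a median of 10197 UMIs and 2898 genes, against 26360 UMIs and 5993.5 genes in Multiciliated3. Its cilia markers were those of multiciliated cells: Tppp3 stood at 2866 CPM and Dynlrb2 at 3021 CPM, against 2251 and 1264 CPM in Multiciliated3. The transcription factor Foxj1 stood at 195 against 344 CPM, and the heavy chain Dnah5 at 166 against 663 CPM. Among markers of other cell types, the secretory Scgb1a1 was at 4.30 CPM, the basal Krt5 at 5.53 CPM and Trp63 at 0, while the secretory Cyp2f2 was at 476 CPM against 3487 in Multiciliated3 and Bpifa1 at 141 against 109. The part of such transcripts and of the lower depth in the shares of the chain was not tested beyond the match on UMIs given next.

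In pooled Multiciliated4 cells the mitochondrial genes made up 2.92% and the nuclear genes 6.76% of UMIs, a ratio of 0.432, against 8.88%, 3.39% and 2.62 in Multiciliated3. By mouse, the mitochondrial share was 2.27, 0.832 and 1.89% in WT 1 to 3 and 2.58, 3.59 and 4.13% in the Mutant mice, the value of WT 2 resting on 6 cells. The nuclear share was 6.44 to 6.95% in the 5 mice with at least 10 cells. Of the 146 cells, 94 (64.4%, Wilson 95% interval 56.3 to 71.7%) had under 2% mitochondrial UMIs, against 74 of 2712 (2.73%, 2.18 to 3.41%) in Multiciliated3. The 261 Multiciliated3 cells with 7696 to 15656 UMIs, the range between the 10th and 90th percentile of Multiciliated4, had 10.6% mitochondrial and 3.34% nuclear UMIs, and 11 of them (4.21%, 2.37 to 7.39%) were under 2%. The intervals cover counting error only.

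Each of the 13 mitochondrial genes was lower in pooled Multiciliated4 than in pooled Multiciliated3. Ratios of pooled CPM ran from 0.226 (mt-Co1) to 0.591 (mt-Nd6, from 54 UMIs in Multiciliated4). By mouse, mt-Nd6 ran from 0.246 (WT 1) to 1.22 (MT1383), and the other mitochondrial genes were below 1 in all 5 mice counted. Of 90 nuclear members with enough UMIs to compare, 87 had a ratio above 1 and 47 above 2, with a median of 2.01, and 78 were above 1 in all 5 mice counted. Highest were Cox7b (2.80), a small complex IV subunit, Cox7a1 (2.72), Atp5md (2.59) and Atp5k (2.54), small membrane subunits of ATP synthase, and Ndufb4 (2.43) of complex I. Lowest were Cox6b2 (0.435, from 6 UMIs in Multiciliated4), Ndufs1 (0.853), the large iron-sulfur subunit of complex I, Sdha (0.898), Atp5a1 (1.02) and Atp5b (1.11), the alpha and catalytic beta subunits of ATP synthase. Cox7b had a ratio of 2.51 to 3.13 in every mouse counted, while Ndufs1 ran from 0.603 to 1.09.

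The ratio tended to fall with annotated transcript length in the members and in all other nuclear genes, though not in the longest members. The median ratio of the other 8104 nuclear genes was 0.800. Spearman's rho of ratio and length was -0.57 over 88 nuclear members and -0.61 over the other genes, both taken across genes of the same cells, which are not independent. Among transcripts of 500 to 1000 bases, 42 members had a median of 2.16 and 626 other genes 1.69 (quartiles 1.37 and 1.93). Among those of 1500 to 2500 bases, 14 members had 1.52 and 2048 other genes 1.01 (0.677 and 1.37). Under 500 bases, the medians were 2.14 for 6 members and 1.90 for 60 other genes. At 1000 to 1500 bases they were 1.92 for 17 members and 1.45 for 964 other genes. At 2500 to 4000 bases they were 1.41 for 6 members and 0.689 for 2194 other genes. Over 4000 bases they were 1.98 for 3 members and 0.4615 for 2212 other genes. The mitochondrial genes, at lengths of 204 to 1824 bases, lay below the median of nuclear genes of like length in each of the classes they fall in.

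**Figure D4:**
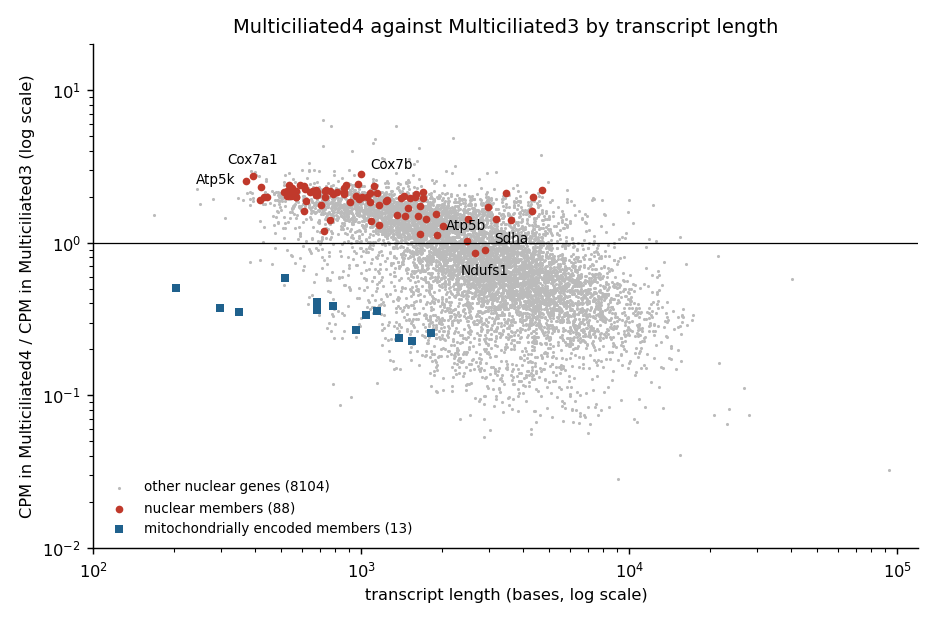
The ratio of pooled CPM in Multiciliated4 to that in Multiciliated3 (log scale) is plotted against transcript length in bases (log scale) for 88 nuclear members, the 13 mitochondrially encoded genes and 8104 other nuclear genes, 1 point per gene, with a line at 1. Members lie between 0.853 and 2.80, at the upper side of the falling cloud, and the mitochondrial genes lie between 0.226 and 0.591.

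Other mitochondrial and metabolic gene lists were set beside the members. Of 78 mitochondrial ribosomal proteins, which translate the mitochondrial messengers, 75 had a ratio of Multiciliated4 to Multiciliated3 above 1, with a median of 1.78. The ratio was above 1 for 8 of 10 carriers and coenzyme Q enzymes (median 1.36), for 7 of 13 factors of mitochondrial DNA expression and biogenesis (1.31), for 10 of 17 glycolysis enzymes (1.18) and for 10 of 16 tricarboxylic acid cycle enzymes (1.09). In Multiciliated2 the summed mitochondrial ribosomal proteins stood at 8442 CPM and the biogenesis factors at 816 CPM, against 6688 and 672 in Multiciliated3. The glycolysis enzymes stood at 2684 CPM in Multiciliated2, the lowest of the 16 clusters, and at 4089 in Multiciliated3. The cycle enzymes stood at 1777 and 2003 CPM.

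WT and Mutant mice were compared on UMIs summed per mouse over multiciliated, secretory or basal cells, with limma voom across all genes and Benjamini-Hochberg adjustment. No member passed an adjusted p of 0.05 in any of the 3 cell types. Of 103 members tested in each, 1 had an unadjusted p under 0.05 in multiciliated, 2 in secretory and 0 in basal cells. Over all genes these were 614 of 14206, 258 of 13610 and 334 of 14615. Of all genes tested, 0.00704% were called in multiciliated, 0.00735% in secretory and 0% in basal cells, and limma-trend on the same sums, an alternative added after the data were seen, also called no member. Cox4i2, Cox6a2 and Ndufa4l2 had too few UMIs to be tested. Dnaaf5 itself, whose missense allele leaves its transcript in place and so checks no label, was at 43.6 ± 5.33 CPM in WT and 52.6 ± 3.66 CPM in Mutant multiciliated cells (log2 difference 0.28, limma adjusted p = 0.896). CPM in these comparisons were scaled by the trimmed mean of M values.

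The median log2 fold change (Mutant to WT) of the 13 mitochondrial genes was 0.03 in multiciliated, -0.11 in secretory and -0.03 in basal cells, and that of the 90 nuclear genes was -0.01, -0.03 and -0.03. In multiciliated cells the genotypes did not overlap for 1 mitochondrial and 2 nuclear genes higher in Mutant (background over all genes 5.19%) and for 0 and 2 lower (4.43%). In secretory cells they did not overlap for 0 and 8 genes higher (3.14%) and for 5 and 3 lower (2.89%). In basal cells these were 0 and 2 higher (3.53%) and 0 and 10 lower (3.51%), 8 of the 10 being of complex I. Among them, named after their values were seen, were the complex I subunits Ndufs1, Ndufv2 and Ndufb9 and the ATP synthase subunits Atp5c1 and Atp5f1. The basal sums mix clusters unevenly between mice. Basal4 gave 1048 cells in WT 1, 2 in WT 2 and 1 in MT1301, and Basal5 gave 729 in MT1383 and 0 in WT 2. The part of this mix in the basal counts of genes was not tested. With each mouse left out in turn, the mitochondrial median ran from -0.03 to 0.06 in multiciliated, from -0.13 to -0.039 (without MT1383) in secretory and from -0.11 to 0.11 in basal cells, and without WT 1 the nuclear median in basal cells was 0.021. Above the background share were, in secretory cells, the 5 of 13 mitochondrial genes lower and the 8 of 90 nuclear genes higher, and in basal cells the 10 of 90 nuclear genes lower. Slightly above it, on very few genes, were also 1 of 13 mitochondrial genes higher in multiciliated and 3 of 90 nuclear genes lower in secretory cells. The 13 mitochondrial genes come from common precursors and are not independent of each other.

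The lowest unadjusted p in multiciliated cells belonged to Ndufaf8, a complex I assembly factor. It was at 120, 120 and 127 CPM in WT 1 to 3 and at 139, 148 and 138 CPM in MT1301, MT1306 and MT1383, all Mutant mice above all WT mice. Its log2 fold change was 0.21 (SE 0.071, limma adjusted p = 0.896). Atp5k (0.33, SE 0.14) and mt-Nd4l (0.39, SE 0.18) followed, both with MT1306 far above the rest, at 368 CPM for Atp5k against 265 CPM in each of the other Mutant mice. In secretory cells Atp5k was at 217, 210 and 203 CPM in WT and at 231, 280 and 253 CPM in Mutant mice (log2 fold change 0.28, SE 0.084, limma adjusted p = 1.00). Ndufaf4, another assembly factor, stood at 32.5, 35.8 and 35.2 CPM in WT and at 30.5, 27.6 and 29.5 CPM in Mutant mice (-0.24, SE 0.074). Ndufa5, an accessory subunit, came next (0.16). In basal cells Ndufb9 (-0.17, SE 0.081) and Cox7a1 (0.41, SE 0.21) were among the lowest. None of these passed the adjusted threshold.

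The test of whether the genotype difference itself differed between cell types also called no member: of 104 members tested, 1 had an unadjusted p under 0.05 for multiciliated against secretory and 1 for multiciliated against basal cells, mt-Atp8 in both. Of all 15942 genes tested, 353 and 703 had an unadjusted p under 0.05 in the same order, and 0% were called in either. Of the other lists, no gene passed in any cell type. Of 78 mitochondrial ribosomal proteins, 61 had a log2 fold change below 0 in multiciliated, 56 in secretory and 57 in basal cells (medians -0.07, -0.03 and -0.04). Of 16 cycle enzymes, 8, 15 and 13 did (medians 0.0042, -0.07 and -0.04). The median over all genes tested was 0.0066, -0.0044 and -0.0069 in the same order. The carrier, biogenesis and glycolysis lists had medians between -0.06 and 0.06 in the 3 cell types.

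The pooled multiciliated cells combine clusters whose mitochondrial shares stood on opposite sides between genotypes. In Multiciliated3 the mitochondrial share of UMIs was 8.35, 7.82 and 7.59% in WT 1 to 3 and 8.45, 10.0 and 9.23% in MT1301, MT1306 and MT1383, so that all Mutant mice lay above all WT mice, with MT1301 next to WT 1. In Multiciliated2 it was 12.5, 11.7 and 11.9% in WT and 10.9, 11.6 and 11.1% in Mutant mice, all Mutant below all WT. Of 14 clusters with at least 2 mice of each genotype, the Mutant mice were all higher in 2, Multiciliated3 and Multiciliated4, and all lower in 5, Multiciliated1, Multiciliated2, Secretory1, Secretory2 and Basal5. Secretory1 had 11.7, 12.6 and 11.8% in WT and 11.3, 11.2 and 10.3% in Mutant mice. The clusters come from the same mice, so agreement among them is not independent. How many clusters would separate without a genotype difference was not computed. Median UMIs per Multiciliated3 cell were 36404, 26540.5 and 34183 in WT and 30229, 34387 and 20098 in Mutant mice, and the part of depth in these shares was not tested.

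**Figure D5:**
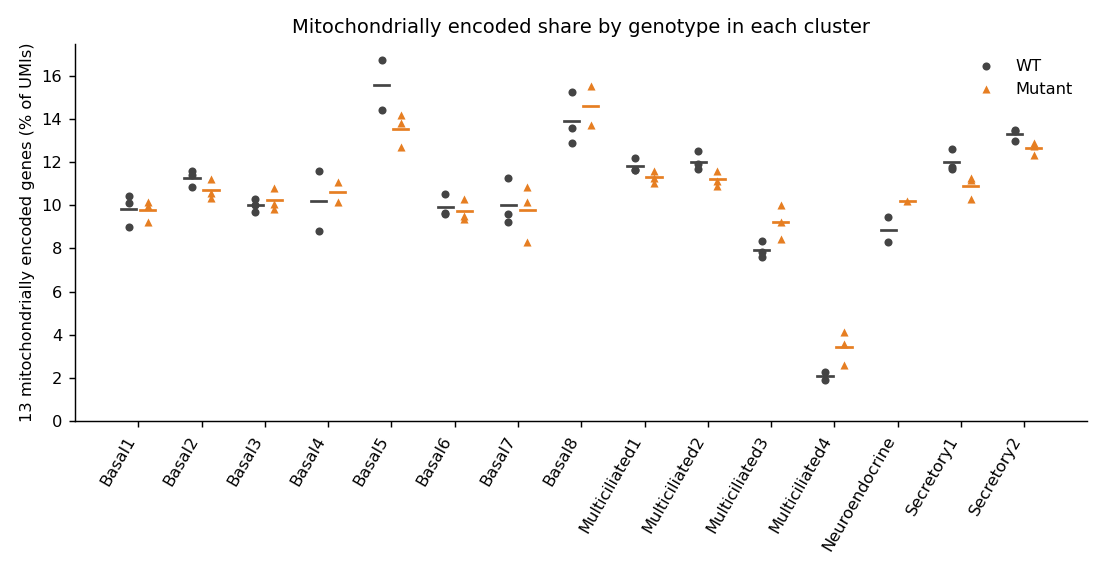
The share of UMIs from the 13 mitochondrially encoded genes (%) is plotted for each cluster, with 1 point per mouse of at least 10 cells and a bar at the genotype mean (WT circles, Mutant triangles). Mutant points lie above WT in Multiciliated3 (means 9.24 and 7.92%) and below WT in Multiciliated2 (11.2 and 12.0%) and Secretory1 (10.9 and 12.0%).

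Multiciliated2 and Multiciliated3 were then fitted alone and against each other, comparisons that were added after the shares had been seen. In Multiciliated3 all 13 mitochondrial genes had a log2 fold change above 0, with a median of 0.22 (0.08 to 0.51). Of these 13, 6 had an unadjusted p under 0.05 (589 of 13096 over all genes). For 4 of the 13 (background 5.05%) all Mutant mice lay above all WT mice, and for 0 (4.89%) below. None was called by limma voom (0.0229% of all genes were), and the lowest adjusted p of a member was 0.978. The nuclear genes there had a median of 0.01, with 49 above 0 and 41 below, and the genotypes did not overlap for 3 higher and 1 lower. In Multiciliated2, 9 of 13 mitochondrial genes were below 0 (median -0.12, and -0.18 without MT1306), 4 of them with all Mutant mice below WT (background 3.44%). Of the 90 nuclear genes there, 11 had all Mutant mice higher (background 4.09%) and 2 lower, and again none was called (0.00857% of all genes were). Of the nuclear genes in Multiciliated2, 8 of 90 had an unadjusted p under 0.05 (408 of 11674 over all genes). Among the 8 were Cox6b2 (log2 fold change 0.55, SE 0.18, limma adjusted p = 0.987) and Ndufaf8 (0.29, SE 0.089, same adjusted p).

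In the test of the difference between the clusters, all 13 mitochondrial genes had a more positive genotype difference in Multiciliated3 than in Multiciliated2, by a median of 0.37 on the log2 scale (0.18 to 0.46), and 11 of them had an unadjusted p under 0.05. Of the 90 nuclear genes 2 did, Cox6b2 (-0.55) and Ndufaf3 (-0.28), and 27 were above 0. By unadjusted p, mt-Nd1, mt-Co2, mt-Co3 and mt-Atp6 were ranks 1 to 4 of the 13237 genes tested, mt-Nd3 was rank 7 and mt-Cytb rank 10. None passed the adjusted threshold, nor did any other gene (0% called, 560 at an unadjusted p under 0.05). In Multiciliated3, mt-Nd1 was at 4718, 4164 and 4246 CPM in WT 1 to 3 and at 5112, 5817 and 4731 CPM in the Mutant mice, MT1383 lying just above WT 1. In Multiciliated2 it was at 6383, 5613 and 5948 CPM in WT and at 5420, 5989 and 4902 CPM in Mutant mice, which overlap. The difference of the log2 fold changes was 0.38 (95% confidence interval 0.25 to 0.50, limma adjusted p = 0.301), and for mt-Co2 it was 0.39 (0.26 to 0.53, limma adjusted p = 0.301). Multiciliated2 and Multiciliated3 were picked for the opposite shares of these same 13 genes. The low p-values, ranks and intervals of these genes, and their counts in each cluster alone, follow in part from that choice. They are therefore descriptions and no independent test. The genes also share precursors, so the agreement among the 13 is no independent count.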

How the data were processed

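Single-cell 3′ libraries (10x, version 2 chemistry) of 6 cultures, 1 mouse each, were measured. The deposited table holds whole UMI counts of each gene in each cell, and a second deposited table gives the authors' cluster, genotype and percent of mitochondrial UMIs per cell. The authors' processing notes name mm10 and Cell Ranger 7.1.0, while their methods name another version, and their stated limits were 2500 to 7500 genes and 25% mitochondrial UMIs (the cells held 2501 to 7999 genes). Both tables separate fields by an unusual 2-character mark, so their unit was recorded as other, and limma voom 3.58.1 (R 4.3.3) on the deposited counts summed per mouse replaced the count model first planned. Sums were filtered at a count minimum of 10 and scaled by TMM, tested WT against Mutant over 3 mice each, and adjusted over all genes at 0.05; the test between cell types had mouse as a term. Cultures of separate mice were the replicates. WT columns match titled animals; Mutant numbers match the group only. Cluster CPM and shares were computed from unscaled sums, for mice with at least 10 cells. Doublets were not sought. Genes were named by rule: the 13 mitochondrial genes, the top nuclear subunit of each complex, the tissue-restricted forms, the 3 lowest p-values per cell type, the 5 highest and lowest Multiciliated4 ratios, and Dnaaf5; others are said to be chosen after their values were seen. A gene that this rule names is not reported here. The members and lists were chosen with earlier results of these data known. The fits were tested on simulated data. Alternatives were other scaling, filters, cells, mice left out and limma-trend.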

Additional observations from a re-analysis of the deposited data

Results flagged for a closer look

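The mitochondrially encoded share of UMIs stood out because all Mutant mice moved up in some clusters and down in others. As Mutant minus WT, in percentage points, it was 1.32 in Multiciliated3 and 1.35 in Multiciliated4. It was -0.515 in Multiciliated1, -0.802 in Multiciliated2, -1.11 in Secretory1, -0.640 in Secretory2 and -2.02 in Basal5. The difference between clusters was not tested for the share itself, and the test per gene between Multiciliated2 and Multiciliated3 called no member. In Multiciliated4 and Basal5 only 2 WT mice had at least 10 cells. All these clusters come from the same mice and are not independent of each other. The causes of these differences were not tested.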

How the results depend on the processing

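No member was called in any of the 3 cell types under any alternative run. These were upper-quartile factors, library sizes over nuclear genes only, no filter, limma-trend, the stated cell limits, other choices of clusters, and each mouse left out. Multiciliated2, Multiciliated3 and the differences between cell types or clusters were refitted only with upper-quartile factors and with each mouse left out. No member was called there either. A count model such as DESeq2 was not run, because the tables' unit was recorded as other for their field separator. The values themselves are whole counts. Medians near 0 changed sign with a mouse left out: the nuclear median in each cell type, and the mitochondrial median in multiciliated and basal cells. The mitochondrial median in multiciliated cells moved from 0.03 to 0.22 with the largest cluster, Multiciliated3, alone. Leaving out a mouse gave mitochondrial medians of -0.13 to -0.039 in secretory cells (-0.039 without MT1383) and of -0.18 to -0.084 in Multiciliated2 (-0.18 without MT1306), and nuclear medians of -0.066 to 0.021 in basal cells (0.021 without WT 1). The nuclear share in Multiciliated4 was 6.76% of all UMIs and 6.96% of nuclear-gene UMIs. Multiciliated3 cells in the UMI range of Multiciliated4 had 10.6% mitochondrial UMIs in place of 8.88%, and a ratio of 3.18 in place of 2.62. The cause of these moves was not tested. Multiciliated4 had the lowest and Basal5 the highest ratio, among clusters of at least 100 cells, also with subunits only and as a mean over cells. No paired analysis was possible because the Mutant columns carry numbers that match no titled replicate, and nothing ties a mouse to one of the other genotype. Depth limits Multiciliated4, with 146 cells, and the Ionocyte cluster, with 28, most.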

Other observations

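In the Ionocyte cluster, summed nuclear genes of complex III stood at 6217 CPM against 2793 CPM in Basal1, a ratio of 2.23, and mitochondrial complex I genes at a ratio of 2.23 as well. The glycolysis enzymes stood at 8072 CPM there, the highest of the 16 clusters, and the carriers and coenzyme Q enzymes at 1221 CPM, second to Multiciliated4 (1536 CPM). Mitochondrial ribosomal proteins, at 6160 CPM, were close to Basal1 (6309 CPM). These values rest on 28 cells, 19 of them of MT1383, and have no replicate check.

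The 12 assembly factors summed to 1079 CPM in Multiciliated2, against 691 CPM in Multiciliated3 and 404 CPM in Basal1, a sum in which Ndufaf3 has a large part. In Basal5, the mitochondrial genes of complex IV summed to 61108 CPM and in Basal1 to 42448 CPM.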
